A study of Mus musculus with 16 samples.

Results

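The 9 genes described here encode 2 activating receptors of natural killer (NK) cells, the adaptors that carry their signal, and the kinases and scaffold that stand next to the membrane: Ncr1, Fcgr3, Fcer1g, Tyrobp, Hcst, Cd247, Zap70, Syk and Lat. They were chosen by name and taken from the read count table, where each symbol had a single row. The table holds 49671 genes, and all 9 were among the 13940 that could be tested. The RNA came from NK cells of mice that carried mammary tumours.

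All mice had the genotype Cdh1F/F;Trp53F/F;Foxp3GFP-DTR on an FVB/N background and bore a transplanted KEP mammary tumour of 100 mm2, a tumour type that arises by loss of E-cadherin and p53. In these mice the receptor for diphtheria toxin (DT) is driven from Foxp3, the defining gene of regulatory T cells, so DT is aimed at those cells. The 4 groups had 4 libraries each: LN PBS and LN DT from axillary tumour-draining lymph nodes (LN), and lung PBS and lung DT from lungs. DT mice received 25 ug of DT at T = 0 and T = 7, and PBS mice received PBS at the same points; the sources used here give no unit of time and no age of the mice. NK cells were sorted as live CD45+ CD3- NKp46+ DX5+ cells, 5000 to 10000 per library. Lungs, unlike LN, were digested with Liberase and cleared of red cells, so digestion and tissue cannot be told apart. Since PBS mice carry the DT receptor too and no mice without it entered the design, the loss of Foxp3-expressing cells and other effects of DT cannot be told apart.

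NK cells read target cells through receptors that have no signalling tail of their own. NKp46, encoded by Ncr1, and the IgG receptor CD16, encoded by Fcgr3, hand their signal to the Fc receptor gamma chain (Fcer1g). The CD3 zeta chain (Cd247) is another adaptor of NKp46. The tails of both chains hold tyrosine motifs known as ITAMs. DAP12 (Tyrobp) is the ITAM adaptor of the activating Ly49 receptors, and DAP10 (Hcst), which has no ITAM, is an adaptor of NKG2D and recruits phosphatidylinositol 3-kinase. Phosphorylated ITAMs bind the kinases Syk and ZAP-70, which phosphorylate scaffolds such as LAT.

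Some of these genes lie near each other in the mouse genome (GRCm38). Tyrobp (chr7:30413760-30417585, plus strand) and Hcst (chr7:30417712-30419854, minus strand) lie tail to tail with 126 bases between them. Fcgr3 (chr1:171051174-171064935) and Fcer1g (chr1:171229572-171234365) share the minus strand, with 164636 bases between them. Ncr1 (chr7:4337724-4345164, plus), Lat (chr7:126363824-126369570, minus), Cd247 (chr1:165788681-165877277, plus), Zap70 (chr1:36761798-36782818, plus) and Syk (chr13:52583173-52648792, plus) stand alone.

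The sequence before the start site is shown for the 4 genes on which the results below turn: Lat and Fcer1g, which did not overlap between DT and PBS in the lung, and Lat, Hcst and Ncr1, which did not overlap between the tissues in DT mice. Sequences are from RefSeq (GRCm38.p6), written 5′ to 3′ on the gene's own strand and ending before the most upstream annotated start; no base of them lies in an annotated exon of any gene. They span chr7:126369571-126369818 for Lat, chr1:171234366-171234599 for Fcer1g, chr7:30419855-30420104 for Hcst and chr7:4337465-4337714 for Ncr1. Capitals mark AGGAAG, a longer form of the GGAA core bound by ETS factors, and TGTGGT, bound by RUNX factors, on either strand.
Lat: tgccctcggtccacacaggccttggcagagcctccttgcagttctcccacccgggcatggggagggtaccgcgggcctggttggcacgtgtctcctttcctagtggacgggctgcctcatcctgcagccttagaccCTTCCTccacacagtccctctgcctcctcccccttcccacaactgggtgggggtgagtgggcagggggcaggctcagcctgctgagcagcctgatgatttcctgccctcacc
Fcer1g: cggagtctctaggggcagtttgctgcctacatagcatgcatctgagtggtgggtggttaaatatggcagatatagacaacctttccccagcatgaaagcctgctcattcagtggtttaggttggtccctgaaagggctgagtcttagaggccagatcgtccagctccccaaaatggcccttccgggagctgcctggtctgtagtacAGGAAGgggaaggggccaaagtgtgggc
Hcst: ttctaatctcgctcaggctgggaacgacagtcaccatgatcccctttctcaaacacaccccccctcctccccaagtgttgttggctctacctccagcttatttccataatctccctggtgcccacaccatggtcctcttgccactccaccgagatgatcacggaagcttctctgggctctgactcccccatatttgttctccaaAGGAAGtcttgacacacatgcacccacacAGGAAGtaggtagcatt
Ncr1: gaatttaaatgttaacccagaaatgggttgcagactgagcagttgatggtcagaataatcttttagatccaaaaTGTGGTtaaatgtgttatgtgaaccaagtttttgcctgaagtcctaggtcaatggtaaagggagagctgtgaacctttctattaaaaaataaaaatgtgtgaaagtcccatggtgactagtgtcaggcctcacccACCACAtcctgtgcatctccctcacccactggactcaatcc
Hcst holds AGGAAG at 2 places and Lat and Fcer1g at 1 place each, while Ncr1 holds TGTGGT at 2 places and no AGGAAG. The G and C share is 65.3% in the Lat window, 54.3% in that of Fcer1g, 52.4% in that of Hcst and 41.6% in that of Ncr1. Of the 9 genes, 8 had an entry, and AGGAAG was found in 6 of these 8 windows of 250 bases, against 29.5% of 32851 promoter windows of that length. TGTGGT was found in 1 of 8, against 4614 of the 32851 windows. The shorter GGAA, which AGGAAG contains, was in 6 of 8, against 93.4%, and neither the GC box GGGCGG (32.7% of all windows) nor TATAAA (12.4%) was in any of the 8. These are matches of letters, not binding sites.

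The libraries held between 3929560 and 10744934 counts, both extremes in lung PBS (replicates 2 and 1). Of the 8 NK markers, all were detected in each group, with sums of 5775 to 11460 CPM (counts scaled to a library of 1000000). The labels state biological replicates without naming the animals, so the p-values take each library as 1 animal. Markers of other cells were unevenly spread. The 9 macrophage and monocyte markers summed to 45.1 to 372 CPM in the LN libraries and to 129 to 3873 CPM in the lung libraries. The highest were lung DT replicates 2 (3873) and 3 (3365) and lung PBS replicate 2 (3608). The 8 T cell markers summed to 262 to 461 CPM in LN, to 28.7 to 68.8 in lung PBS and to 57.9 to 371 in lung DT, with Cd8b1 at 0 in both lung groups. Mitochondrial genes took 3.11% to 4.40% of counts in lung DT and 0.951% to 2.57% in lung PBS, so these groups did not overlap. In LN DT they took 1.24% to 4.93% and in LN PBS 1.05% to 1.68%. The DT libraries numbered 1 had 14.98% (LN) and 15.4% (lung) of counts in their 10 most abundant genes, and the other 14 libraries had at most 11.3%. Values below are CPM scaled by the trimmed mean of M-values (TMM), and a change is called at a Benjamini-Hochberg adjusted p under 0.05 in edgeR over all tested genes.

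**Figure D1:**
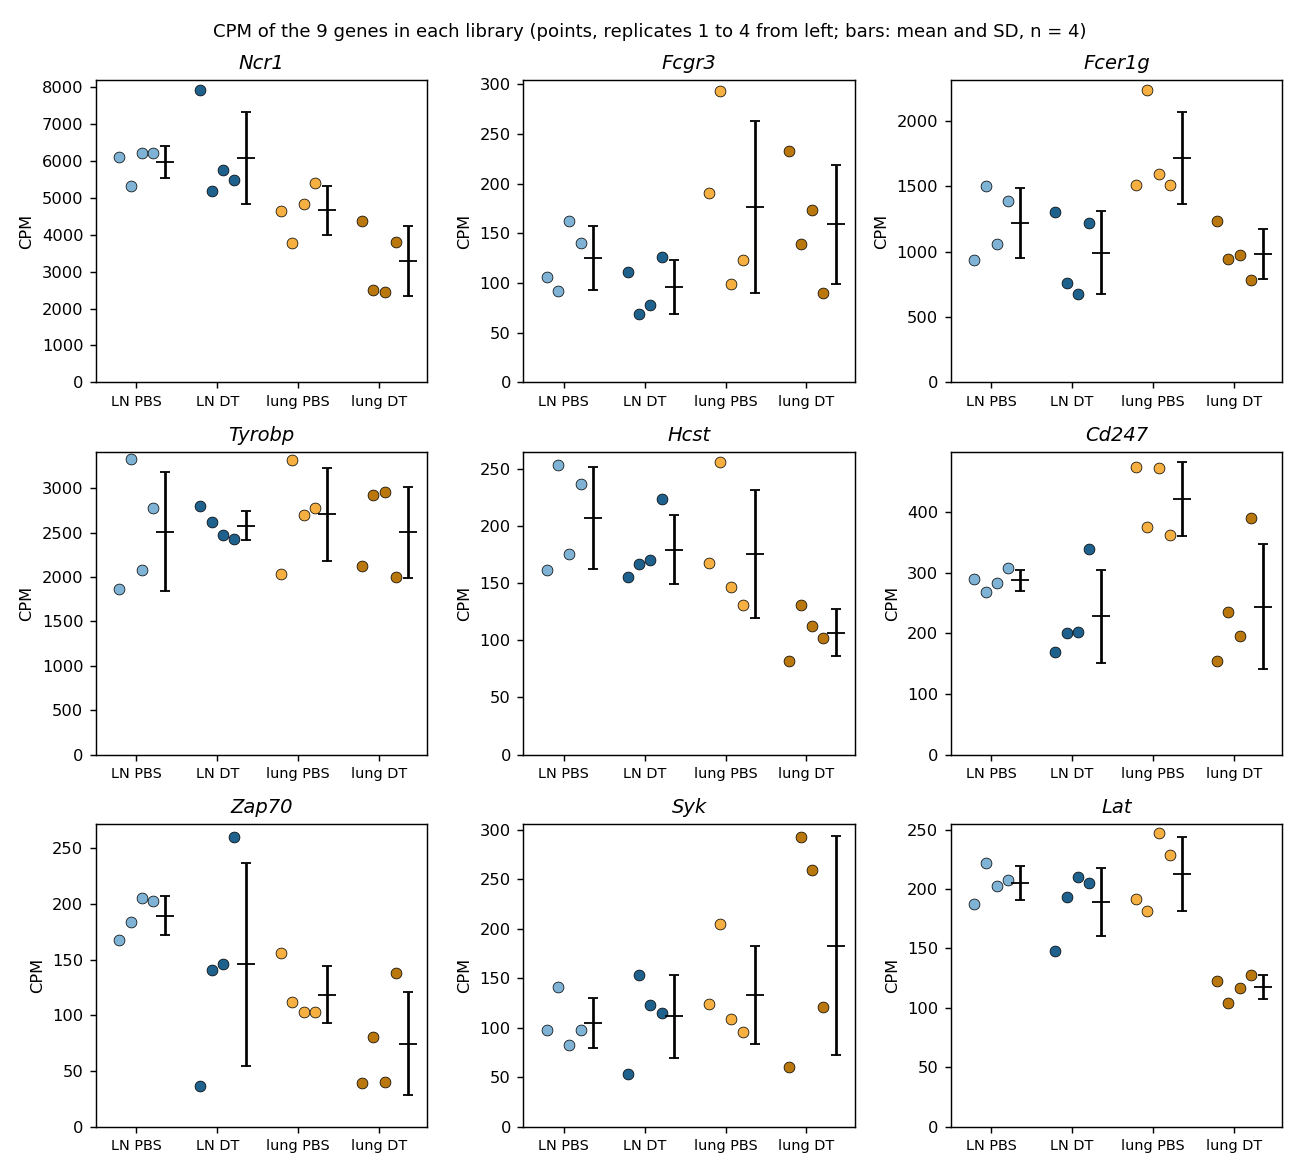
CPM of each of the 9 genes (y axis, linear from 0) in the 16 libraries by group (x axis); points are libraries and bars are the mean and SD of 4. Lat lay between 104 and 128 CPM in the 4 lung DT libraries and at 148 CPM or above in the other 12.

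None of the 9 genes passed the test between DT and PBS in edgeR, in LN or in lung. In the lung, 8 of 9 log2 fold changes were below 0, with a median of -0.67, against a median of 0.09 over all genes, and Syk was the exception. Of all genes, edgeR called 0.108% there. At an unadjusted p under 0.05, 4 were lower, as were 7.06% of all genes: Lat, Fcer1g, Cd247 and Hcst. DESeq2 and limma-voom each called 1, Lat, beside 3.56% and 3.12% of all genes. In LN, 6 of 9 were below 0, with a median of -0.21 against 0.08 over all genes. None was called in edgeR, where 0.0646% of all genes were, none had an unadjusted p under 0.05 (11.8% of all genes), and DESeq2 called none (2.35% of all genes). Limma-voom called 3 lower there, beside 26.8% of all genes. The difference between the 2 responses was called for none of the 9 (background 0.00717%) by edgeR, by DESeq2 (0.215%) or by limma-voom (0%). Lat alone had an unadjusted p under 0.05 there (4.2% of all genes did). In bulk RNA, fewer cells of a type in the sort and less RNA per cell cannot be told apart.

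Ncr1 encodes NKp46, the protein on which the cells were sorted, so its level is that of cells already chosen for it. In LN it stood at 6102, 5326, 6215 and 6216 CPM with PBS and 7917, 5176, 5741 and 5484 with DT, and in lung 4646, 3770, 4820 and 5387 with PBS and 4382, 2514, 2457 and 3802 with DT (replicates 1 to 4). Every lung DT library lay below every LN DT library, and lung PBS overlapped LN PBS in 1 library. In DT mice Ncr1 was lower in lung than in LN, at 3289 ± 957 against 6079 ± 1247 CPM (SD, n = 4), a log2 fold change of -0.89 ± 0.25 (SE; adjusted p = 0.0381). In PBS mice the same comparison gave -0.36 ± 0.25 (adjusted p = 0.524), and DT against PBS gave 0.03 ± 0.25 in LN (adjusted p = 0.983) and -0.50 ± 0.25 in lung (adjusted p = 0.353). The difference between those 2 responses was 0.53 ± 0.35 (adjusted p = 1). The lowest 3 of the 8 lung values for Ncr1 are in the 3 libraries highest in macrophage markers. With these 3 left out, the difference between the tissues in DT mice was -0.58 (adjusted p = 0.261), and with the macrophage marker level as a covariate it was -0.63 (adjusted p = 0.33). Both alternatives were chosen after seeing the data. Without these 3 libraries, here and below, only replicates 1 and 4 of lung DT remain. A call can then be lost through fewer libraries alone.

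Fcgr3 encodes CD16, the receptor through which NK cells kill cells coated with antibody. In LN its values were 106, 91.7, 162 and 140 CPM with PBS and 111, 69.2, 77.5 and 126 with DT, and in lung 190, 293, 99.1 and 123 with PBS and 233, 140, 174 and 90.3 with DT. The groups overlapped in every comparison, with 3 of the 4 lung DT libraries above all of LN DT. Lung against LN gave 0.50 ± 0.35 in PBS mice (adjusted p = 0.544) and 0.73 ± 0.35 in DT mice (adjusted p = 0.252), and DT against PBS gave -0.15 ± 0.35 in lung (adjusted p = 0.873) and -0.38 ± 0.35 in LN (adjusted p = 0.706), the latter called by limma-voom (-0.76, adjusted p = 0.0357). The highest value, 293 CPM, was in lung PBS replicate 2, which was high in macrophage markers, cells that also carry this receptor. Without the 3 lung libraries highest in those markers, DT against PBS in lung was 0.21 (adjusted p = 0.874). Fcgr3 shares 9.58% of its stretches of 50 bases with Fcgr2b, so a part of its reads is uncertain.

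Fcer1g encodes the gamma chain that carries the signal of CD16 and NKp46. In LN it had 936, 1507, 1062 and 1386 CPM with PBS and 1308, 764, 676 and 1219 with DT, and in lung 1511, 2239, 1596 and 1511 with PBS and 1239, 942, 972 and 782 with DT. In the lung all 4 DT libraries lay below all 4 PBS libraries, which of the 9 was so for Fcer1g and Lat (4.53% of all genes were lower without overlap). The means were 984 ± 189 against 1714 ± 352 CPM (SD, n = 4), a log2 fold change of -0.80 ± 0.27 (SE; adjusted p = 0.205 in edgeR). Without LN DT replicate 1 and lung DT replicate 1 it was -0.996 (adjusted p = 0.0451). In LN the difference was -0.30 ± 0.27 (adjusted p = 0.692). Between the tissues of PBS mice Fcer1g was higher in every lung library than in every LN library, at 0.49 ± 0.27 (adjusted p = 0.388), while in DT mice the means were 984 and 992 CPM. Lung PBS replicate 2, the highest at 2239 CPM, was high in macrophage markers, which use the same chain; without it and the other 2 such libraries, DT against PBS in lung was -0.63 (adjusted p = 0.485). Markers of basophils and mast cells, which also use this chain, summed to 15.2 CPM or less in each library. The part of any of these cells in the Fcer1g values was not tested beyond these values.

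Cd247 encodes the zeta chain, the other ITAM adaptor of NKp46. In LN it had 290, 268, 283 and 308 CPM with PBS and 170, 200, 202 and 340 with DT, and in lung 475, 376, 473 and 363 with PBS and 155, 235, 196 and 390 with DT. In each tissue 3 of the 4 DT libraries lay below all PBS libraries, and the replicate numbered 4 did not. DT against PBS gave -0.79 ± 0.28 in lung (SE; adjusted p = 0.225) and -0.33 ± 0.28 in LN (adjusted p = 0.677). In PBS mice all lung libraries exceeded all LN libraries, at 422 ± 60.7 against 287 ± 16.6 CPM (SD, n = 4; log2 fold change 0.55 ± 0.28, adjusted p = 0.34), and in DT mice the difference was 0.10 ± 0.28 (adjusted p = 0.896). With the mitochondrial share of each library as a covariate, DT against PBS was -0.17 in lung and 0.30 in LN. That share did not overlap between DT and PBS in lung, so share and treatment are hard to separate there. Exons of Cd247 overlap those of Pou2f1 on the opposite strand over 3007 bases. Of its 50-base stretches, 55.9% also occur in other genes' transcripts. The counts of Cd247 are therefore uncertain, and no strand setting was stated. Pou2f1 itself had a mean of 37.4 CPM.

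Tyrobp, the adaptor DAP12, differed little between the groups. In LN its means were 2512 ± 673 CPM with PBS and 2580 ± 169 with DT, and in lung 2708 ± 524 with PBS and 2503 ± 511 with DT (SD, n = 4), with a lowest library of 1860 and a highest of 3334, both in LN PBS. No comparison between groups moved it by more than its SE: DT against PBS gave 0.04 ± 0.25 in LN and -0.11 ± 0.25 in lung, and lung against LN gave 0.11 ± 0.25 in PBS mice and -0.04 ± 0.25 in DT mice (adjusted p from 0.859 to 0.972).

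Hcst, the adaptor DAP10, lies next to Tyrobp on the chromosome and was lowest in lung DT. In LN it had 162, 254, 176 and 237 CPM with PBS and 156, 167, 171 and 224 with DT, and in lung 167, 256, 147 and 131 with PBS and 81.6, 131, 112 and 102 with DT. All lung DT libraries lay below all of LN DT, and 3 of them lay below all of lung PBS; lung DT replicate 2 was level with lung PBS replicate 4, at 131 CPM each. In DT mice lung against LN gave 107 ± 20.6 against 179 ± 30.2 CPM (SD, n = 4) and a log2 fold change of -0.75 ± 0.26 (SE; adjusted p = 0.0894). It passed where same-numbered libraries of DT mice were paired, at -0.75 (adjusted p = 0.0331), a pairing that the labels do not state. DT against PBS in lung was -0.71 ± 0.26 (adjusted p = 0.226), and in LN -0.21 ± 0.25 (adjusted p = 0.793). When the mitochondrial share entered as a covariate, the lung value was -0.34 (adjusted p = 0.972). The share did not overlap between lung DT and lung PBS, so this value hardly separates it from treatment.

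Zap70 encodes the ITAM kinase that NK cells share with T cells. In LN it had 167, 184, 205 and 203 CPM with PBS and 36.3, 141, 146 and 260 with DT, and in lung 156, 112, 103 and 103 with PBS and 39.3, 81.0, 40.3 and 138 with DT. Among PBS mice every lung library lay below every LN library, at -0.68 ± 0.45 (SE; adjusted p = 0.51). Among DT mice the difference was -0.97 ± 0.46 (adjusted p = 0.236), the largest of the 9 in that comparison, and the spread was wide, from 36.3 to 260 CPM within LN DT. DT against PBS gave -0.38 ± 0.45 in LN and -0.67 ± 0.45 in lung (adjusted p = 0.787 and 0.511). With the mitochondrial share as a covariate these became 0.76 and 0.47, and neither passed. In lung that share did not overlap between DT and PBS, so this fit could hardly separate share from treatment there. The sum of T cell markers was also lower in lung in PBS mice (326 to 409 CPM in LN PBS, 28.7 to 68.8 in lung PBS). Cd4 and Cd8a, with means of 3.59 and 0.62 CPM in LN PBS, had 4.38 and 1.66 in lung PBS. Within each tissue the DT library numbered 1 had the highest T cell sum (461 CPM in LN, 371 in lung). These libraries had the lowest Zap70 of their tissues (36.3 and 39.3 CPM). The part of T cells in the Zap70 values was not tested.

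Syk, the other ITAM kinase, is abundant in macrophages and B cells. In LN it had 97.4, 141, 83.0 and 97.4 CPM with PBS and 53.3, 154, 123 and 115 with DT, and in lung 124, 205, 109 and 95.5 with PBS and 60.4, 292, 259 and 121 with DT. The 3 highest values were in lung DT replicates 2 and 3 and lung PBS replicate 2, the 3 libraries highest in macrophage markers. DT against PBS gave 0.46 ± 0.42 in lung (SE; adjusted p = 0.633), and -0.29 (adjusted p = 0.803) with those libraries left out. Lung against LN in DT mice likewise went from 0.72 ± 0.42 (adjusted p = 0.367) to -0.31 (adjusted p = 0.725). In LN the highest Syk value of the PBS group (141 CPM, replicate 2) was in the library lowest in macrophage markers (45.1 CPM). B cell markers, also of cells that use Syk, summed to 141 to 882 CPM in LN DT and 63.0 to 113 in LN PBS, while the means for Syk were 111 ± 42.1 and 105 ± 25.3 CPM (SD, n = 4; adjusted p = 0.962). The part of macrophages or B cells in the Syk values was not tested beyond these values.

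**Figure D2:**
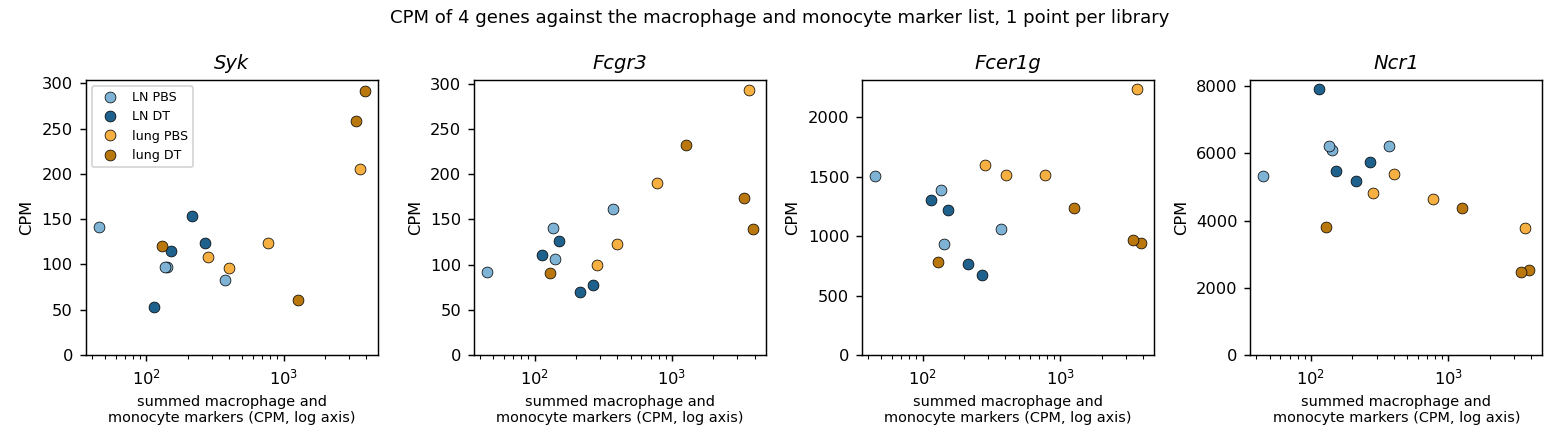
CPM of Syk, Fcgr3, Fcer1g and Ncr1 (y axes) against the summed CPM of 9 macrophage and monocyte markers (x axis, log scale); each point is 1 library, coloured by group. The 3 libraries with 3365 to 3873 CPM of markers hold the 3 highest Syk values (205 to 292 CPM) and the lowest Ncr1 values (2457 to 3770 CPM).

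Lat, the scaffold that gathers phospholipase C gamma and its partners, had the smallest p of the 9 between DT and PBS in the lung. In LN it had 187, 222, 203 and 208 CPM with PBS and 148, 193, 210 and 205 with DT, and in lung 192, 181, 247 and 229 with PBS and 122, 104, 117 and 128 with DT. The 4 lung DT libraries lay below all of the other 12. In DT mice lung was lower than LN, at 118 ± 10.1 against 189 ± 28.3 CPM (SD, n = 4), a log2 fold change of -0.68 ± 0.20 (SE; adjusted p = 0.0467), while in PBS mice the difference was 0.05 ± 0.20 (adjusted p = 0.936). The call in DT mice was lost with macrophage markers as a covariate (-0.54, adjusted p = 0.315), without the 3 libraries highest in them (-0.61, adjusted p = 0.198), with median-ratio factors (adjusted p = 0.0626), with no gene filter (adjusted p = 0.137) and with the replicate number as a block over all groups (adjusted p = 0.0531). It passed in 8 of 30 alternatives (adjusted p from 0.00208 to 0.315). DT against PBS gave -0.85 ± 0.20 in lung (adjusted p = 0.0887 in edgeR), rank 75 of 13940 genes by p, and -0.11 ± 0.20 in LN (adjusted p = 0.867). DESeq2, limma-voom and the fit without LN DT replicate 1 and lung DT replicate 1 called the lung difference, which lay between -0.97 and -0.79 in all 29 alternatives. The difference between the 2 responses, LN minus lung, was 0.74 ± 0.28 (adjusted p = 1). The lung value was -0.85 (adjusted p = 0.247) without the 3 libraries highest in macrophage markers and -0.81 (adjusted p = 0.131) with that marker level as a covariate.

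**Figure D3:**
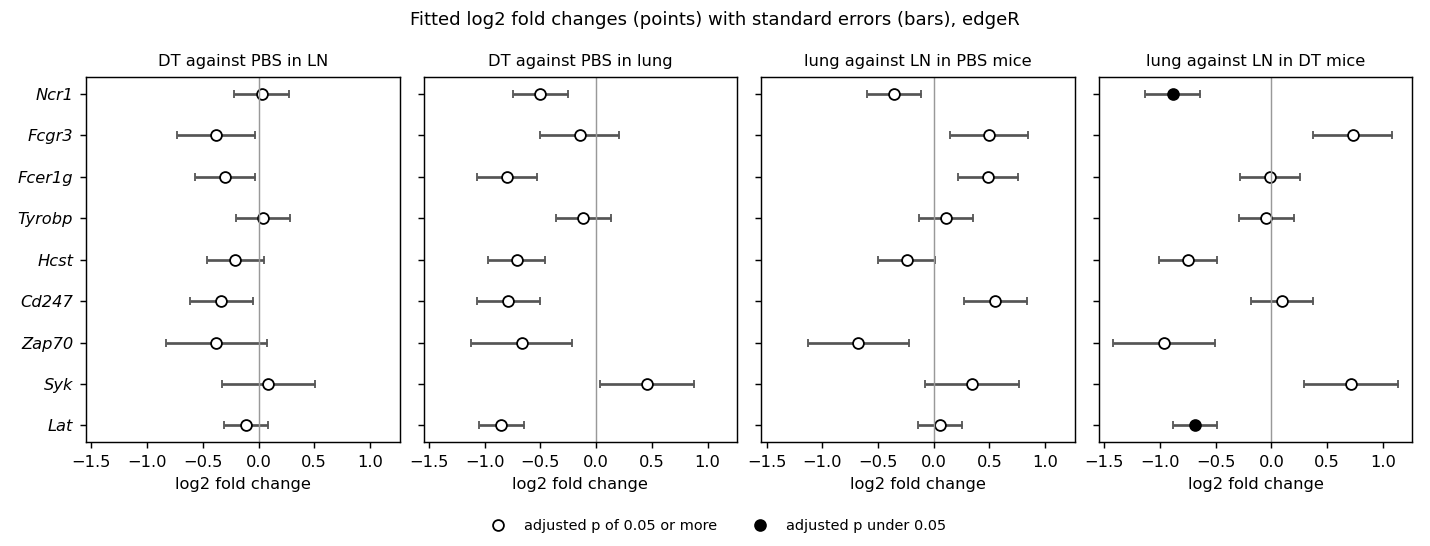
Fitted log2 fold changes (x axis) of the 9 genes (y axis) in 4 comparisons, with bars of 1 SE; filled points have an adjusted p under 0.05 in edgeR. The 2 filled points are Ncr1 (-0.89) and Lat (-0.68), both in lung against LN in DT mice.

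The comparison of tissues in DT mice uses the same lung DT libraries as that of DT and PBS in lung. Between the tissues, 2 of the 9 were called in DT mice, Ncr1 and Lat, both lower in lung, where 6.75% of all genes were called and 2.78% were called lower. Ncr1, Hcst and Lat were lower in lung without overlap (6.08% of all genes were). With same-numbered libraries paired, Hcst passed beside Ncr1 and Lat. The share of all genes called in that fit is not given here, so this count has no background. The labels do not state this pairing, and in DT mice replicates 2 and 3 correlated more with another number (0.22). Leaving out any 1 of the 16 libraries left 1 or 0 of the 9 past the threshold, while Ncr1 stayed between -1.02 and -0.58 and Lat between -0.82 and -0.54 in all 30 alternatives. In PBS mice none of the 9 was called in edgeR (3.61% of all genes were) and none had an unadjusted p under 0.05 (16.9% of all genes did); DESeq2 called none (8.89% of all genes) and limma-voom 1, Cd247 (16.5%). There Fcer1g and Cd247 were higher (9.25% of all genes) and Zap70 lower (9.91%) in lung without overlap. Averaged over both tissues, DT against PBS called none of the 9 in edgeR (3.9% of all genes were called), with 4 lower at an unadjusted p under 0.05 (9.39% of all genes were): Lat (-0.48 ± 0.14, adjusted p = 0.0591), Fcer1g (-0.55 ± 0.19, 0.0971), Cd247 (-0.56 ± 0.20, 0.105) and Hcst (-0.46 ± 0.18, 0.137). For this mean DESeq2 called 1, Lat, beside 12% of all genes, and limma-voom 6, beside 27.1%. The mean counts LN and lung libraries as separate animals, which the labels do not state. A fit with the tissues paired within treatment was not run for it. If mice were shared, its SE could be too small.

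Ratios of counts within a library do not depend on library scaling. Of 5 ratios in 4 comparisons, none passed an exact two-sided permutation test after adjustment over the 20 (smallest adjusted p = 0.19; 4 against 4 libraries cannot go below p = 0.0286). Tyrobp to Hcst, DAP12 to DAP10, was 11.5, 13.1, 11.8 and 11.7 in LN PBS, 17.9, 15.7, 14.5 and 10.9 in LN DT, 12.2, 12.9, 18.4 and 21.2 in lung PBS and 26.0, 22.3, 26.4 and 19.6 in lung DT. In DT mice the ratio was higher in every lung library than in every LN library, by 0.69 on the log2 scale (exact permutation p = 0.0286, adjusted p = 0.19). Zap70 to Syk was 1.72, 1.30, 2.47 and 2.08 in LN PBS and 1.26, 0.546, 0.949 and 1.08 in lung PBS, lower in lung without overlap, with a difference of -1.004 on the log2 scale (exact permutation p = 0.0286, adjusted p = 0.19). It was 0.682, 0.918, 1.18 and 2.26 in LN DT and 0.651, 0.278, 0.156 and 1.15 in lung DT, so in 3 of 4 lung DT libraries Syk had more counts than Zap70. Counts are not corrected for gene length, and per kilobase of exon this held in lung DT replicates 2 and 3 only. The lowest Zap70 to Syk ratios, 0.156, 0.278 and 0.546, were in the 3 libraries highest in macrophage markers. The part of macrophages in this ratio was not tested. Fcgr3 to Fcer1g lay between 0.116 and 0.188 in lung DT and between 0.0849 and 0.115 in LN DT, again without overlap (exact permutation p = 0.0286, adjusted p = 0.19). Fcer1g to Cd247, 2 ITAM adaptors, differed by at most 0.0648 on the log2 scale in any comparison of means, with libraries from 2.00 to 8.01.

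**Figure D4:**
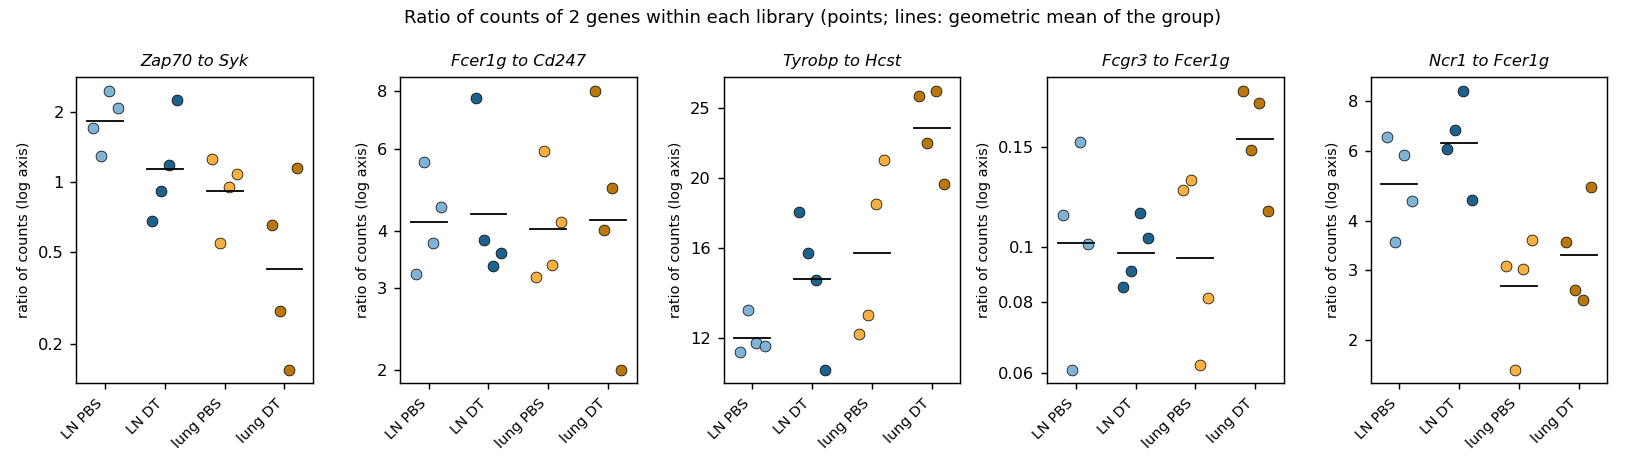
Ratios of the counts of 2 genes in each library (y axes, log scale) by group (x axis); points are libraries and lines are geometric means of 4. Tyrobp to Hcst runs from 19.6 to 26.4 in lung DT and from 10.9 to 17.9 in LN DT.

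Levels of different genes were compared per kilobase of exon, as TPM (transcript levels scaled to the same total of 1000000 in each library). In LN PBS the order of mean TPM was Ncr1 (11510 ± 1339, SD, n = 4), Tyrobp (11040 ± 2361), Fcer1g (4110 ± 695), Hcst (843 ± 142), Lat (219 ± 2.91), Fcgr3 (214 ± 57.1), Zap70 (188 ± 16.9), Cd247 (160 ± 15.2) and Syk (32.9 ± 6.43). The libraries overlapped for Ncr1 and Tyrobp and from neighbour to neighbour between Lat and Cd247. They did not overlap at the steps from Tyrobp to Fcer1g, to Hcst and to Lat, or from Cd247 to Syk. LN DT gave the same order of means. In both lung groups Tyrobp was first and Ncr1 second, with overlap between them, and Tyrobp was above Ncr1 in each of the 8 lung libraries. Ncr1 had 5497 ± 1212 TPM in lung DT and Tyrobp 9982 ± 2911. Syk had the lowest mean in every group, though in lung DT, at 53.9 ± 35.1, it overlapped Zap70 at 68.4 ± 47.5, and in lung DT replicates 2 and 3 it was above Zap70. With coding length in place of exon length Zap70 was the lowest in both lung groups, Cd247 stood above Lat in every group, and Fcer1g stood above Ncr1 in lung PBS. Ncr1 was then above Tyrobp in lung PBS replicate 1 and lung DT replicate 1.

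**Figure D5:**
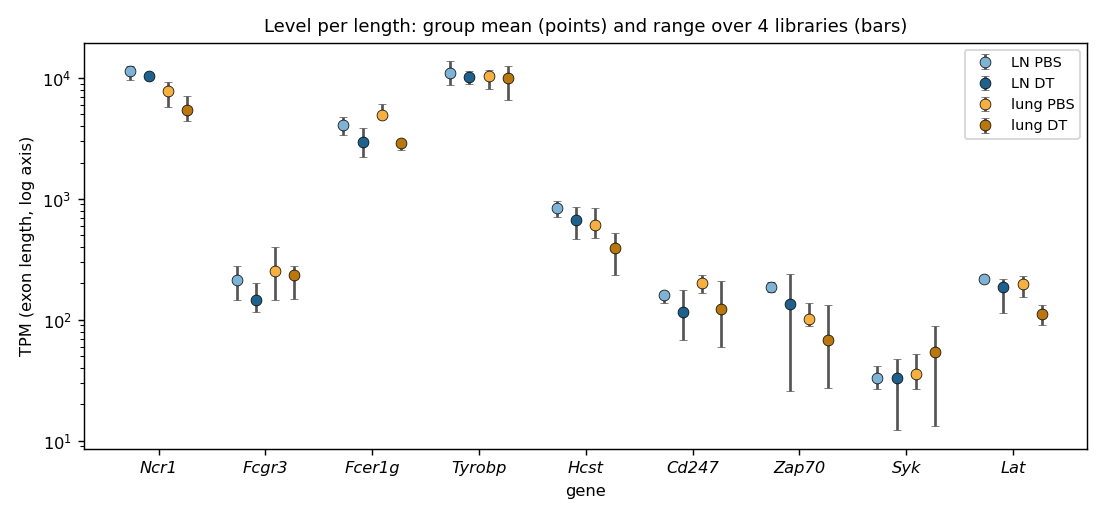
Mean TPM of each gene (y axis, log scale) in each group, with bars from the lowest to the highest of 4 libraries. Means of Ncr1 and Tyrobp in LN lie between 10280 and 11510 TPM, and those of Syk lie at the bottom, between 32.9 and 53.9.

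Across libraries the 9 genes varied in different directions. Of the 36 pairs, Pearson r of log2 CPM over the 16 libraries was above 0 for 24 and ran from -0.80 to 0.66; after subtracting group means 17 were above 0, from -0.98 to 0.82. The lowest of both was Ncr1 with Syk (within groups r = -0.98, Spearman rho = -0.97, and r = -0.98 without the 2 libraries farthest from the Ncr1 median; n = 16). In LN PBS, LN DT and lung PBS the library highest in Syk was the lowest in Ncr1. The highest within groups was Cd247 with Zap70 (r = 0.82, rho = 0.75, and 0.67 without 2 libraries). Neighbouring Tyrobp and Hcst had r = 0.61 within groups. Libraries share depth, RNA quality and scaling, so these values are descriptions. Among 8303 other genes with a mean of at least 10 CPM, the gene most like each of 8 in log2 CPM over the 16 libraries was Pno1 for Ncr1 (r = 0.95), Emp3 for Fcer1g (0.95), Itgb2 for Cd247 (0.94), Orai3 for Zap70 (0.96), Anks1 for Syk (0.92), Nceh1 for Hcst (0.90), Polr2c for Lat (0.89) and Srsf9 for Fcgr3 (0.83). Each r was picked as the highest of 8303, so it is high by selection. Without the 2 libraries farthest from the gene's median, Srsf9 fell to 0.63, and the others named stayed between 0.83 and 0.94.

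Around the 9 genes, 17 partner receptors, 39 genes of the downstream cascade and 20 brakes were tested. Between DT and PBS none of them was called in LN or in lung in edgeR. DESeq2 called 2 in LN and 4 in lung (2.35% and 3.56% of all genes), and limma-voom called 22 and 6 (26.8% and 3.12%). At an unadjusted p under 0.05 there were 9 of the 76 in LN, where 11.8% of all genes were, and 11 in lung, where 14.7% were, so both shares were near those of all genes. The median log2 fold change in lung was 0.05 for receptors, -0.02 for the cascade and -0.16 for brakes, beside -0.67 for the 9 and 0.09 for all genes. In the mean of both tissues edgeR called 1 of the 76, where 3.9% of all genes were called. This was Klrb1c, whose product NKR-P1C is an activating receptor that signals through Fcer1g. It was lower with DT (-0.85 ± 0.20, adjusted p = 0.0323), at 446 ± 92.8 against 951 ± 207 CPM in lung and 577 ± 272 against 878 ± 59.2 in LN (SD, n = 4). Neither tissue passed alone (adjusted p = 0.122 in lung and 0.414 in LN in edgeR). The mean counts LN and lung libraries as separate animals, and no fit paired the tissues for it, so its SE could be too small. Klrk1, which encodes NKG2D, the partner of DAP10, gave 0.08 ± 0.32 with DT in lung and 0.53 ± 0.32 in LN (adjusted p = 0.92 and 0.54), and lung against LN in DT mice gave -0.79 ± 0.32 (adjusted p = 0.155). Cd226, the receptor DNAM-1, gave -0.32 ± 0.40 in lung (adjusted p = 0.736).

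Of the cascade, Lck, the Src family kinase that phosphorylates ITAMs, gave -0.60 ± 0.27 with DT in lung (adjusted p = 0.32) and Fyn, its relative, -0.10 ± 0.26 (adjusted p = 0.886). Lcp2, which encodes SLP-76 and binds next to LAT, gave -0.26 ± 0.25 (adjusted p = 0.639), and Lat2, the LAT-like scaffold, 0.01 ± 0.28 (adjusted p = 0.99). Plcg2, the phospholipase downstream, gave -0.07 ± 0.27 (adjusted p = 0.917) and the exchange factor Vav1 -0.26 ± 0.33 (adjusted p = 0.736). Among the brakes, the phosphatase Ptpn6 (SHP-1) gave -0.41 ± 0.27, the ubiquitin ligase Cblb 0.46 ± 0.31, the lipid phosphatase Inpp5d (SHIP-1) 0.27 ± 0.27 and Dok2 -0.90 ± 0.60, none past the threshold (adjusted p from 0.497 to 0.667). Of these 10 genes around the 9, none was called in the lung.

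Between the tissues more of the surrounding genes were called. In DT mice 1 receptor was higher and 4 were lower in lung, 3 cascade genes were higher and 1 lower, and 3 brakes were lower, where 3.97% of all genes were called higher and 2.78% lower. In PBS mice 1 receptor was higher and 3 lower, 2 cascade genes were higher and 1 brake was lower, where 2.7% of all genes were called higher and 0.904% lower. Slamf6, a SLAM family receptor, was lower in lung in both (-2.82 ± 0.32 in PBS mice, adjusted p = 6.48e-05; -2.70 ± 0.32 in DT mice, adjusted p = 8.8e-05), as were Cd160 (-1.90 ± 0.26 and -2.39 ± 0.26) and Crtam (-2.72 ± 0.67 and -2.49 ± 0.66). Klrb1f was lower in DT mice (-1.92 ± 0.40, adjusted p = 0.00816). Fcgr4, an IgG receptor known from macrophages that also uses Fcer1g, was higher in lung in both, and in PBS mice, where LN had 0 counts against 94, it was at least 36.2-fold higher on a floor of 3 counts over the group, which covers counting error only. Lung PBS replicate 2 held 48 of the 94, and without it the bound was 20.1-fold. It had 3.93 to 134 CPM in lung DT and 13.3 CPM or less in each library of the other groups, beside the macrophage marker levels given above; their part in it was not tested.

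Pik3r1, the regulatory subunit of phosphatidylinositol 3-kinase, was higher in lung (1.75 ± 0.21 and 1.33 ± 0.20 in PBS and DT mice), as was Malt1 (1.45 ± 0.22 and 1.03 ± 0.22), which relays signals to NF-kB. Prkcd was higher (1.04 ± 0.30) and Rasgrp1, an exchange factor downstream of LAT, lower (-1.70 ± 0.35, adjusted p = 0.00816) in DT mice. Dgka, which ends diacylglycerol signals, was lower in both (-1.53 ± 0.32 and -1.14 ± 0.31), Ubash3a was lower in DT mice (-1.62 ± 0.43), and Sit1, with 0 counts in lung DT against 224 in LN DT, was at least 72.3-fold lower. Sit1 and Ubash3a are known from T cells, and T cell markers summed to 262 to 461 CPM in LN DT and 57.9 to 371 in lung DT; their part in these differences was not tested.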

How the data were processed

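The libraries were made from sorted cells with Smart-seq2, per the labels' protocols. The authors deposited 1 table of raw read counts per gene; it was made with HISAT2 and HTSeq on GRCm38, per the submitters' processing notes; the sources used here name no tool versions and no strand setting. No row of the table lacked a gene. The 9 genes and all lists were chosen with earlier results of these data known.

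Counts were fitted in edgeR 4.0.16 (R 4.3.3) with TMM factors, filterByExpr (minimum count 10, minimum total 15), 1 model of 4 group means over 16 libraries (12 residual degrees of freedom, biological coefficient of variation 0.621) and two-sided quasi-likelihood tests with robust dispersion. P-values were Benjamini-Hochberg adjusted over 13940 genes in each of 6 contrasts. The fits were tested on simulated data. DESeq2 1.42.0 and limma-voom (limma 3.58.1) were alternatives, beside other scalings, filters, covariates and left-out libraries.

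For ratios, 0.5 was added to both counts, and exact permutation tests used scipy 1.17.1. TPM used the union of exons in GENCODE M21. Promoters are RefSeq's; motifs were searched on both strands. All 9 genes were named with values, together with 13 set genes of the surrounding lists, any list gene called (at most 6 per list and comparison), and for each of the 9 the gene most like it, of which 1 is not reported here.

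No 2 libraries were duplicates: r of log2 CPM between libraries ran from 0.6845 to 0.9632. Replicate numbers are shared by the groups in the labels. Deviations from the group means of same-numbered LN and lung libraries correlated at 0.376, 0.18, 0.219 and 0.169 in DT mice. Of these, replicates 2 and 3 correlated more with another number (0.22). In PBS mice the correlations were -0.02, 0.166, -0.038 and 0.002. The main fit took no libraries as pairs. Same-numbered LN and lung libraries were paired within PBS and within DT mice only in an alternative fit.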

Additional observations from a re-analysis of the deposited data

Results flagged for a closer look

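Of 36 groups of 4 libraries (9 genes in 4 groups), 3 held a library farther from its neighbours than Dixon's 95% limit for 4 values; chance gives about 1 in 20. Ncr1 in LN PBS replicate 2 was 5326 CPM, below the 6102 to 6216 of the other LN PBS libraries, and this library had the lowest macrophage marker sum of the 16, 45.1 CPM. Fcer1g in lung PBS replicate 2 was 2239 CPM, above the 1511 to 1596 of the other lung PBS libraries, and its macrophage marker sum was 3608 CPM. Zap70 in lung PBS replicate 1, the deepest library, was 156 CPM, above the 103 to 112 of the others.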

How the results depend on the processing

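No called fold change of the 9 genes changed sign in the alternatives run. Of all values under the alternatives, 1438 of 1575 log2 fold changes and 361 of 380 ratios kept their sign and their side of the threshold, 72 and 19 that passed in neither setting changed sign, and 140 of 175 counts of called genes stayed within 1.5 times. For DT against PBS in LN (0 called), limma-voom called 3 (Fcgr3, Fcer1g and Cd247). For the lung (0 called), DESeq2 and limma-voom called 1 each (Lat), and leaving out both DT libraries numbered 1 gave 2 (Fcer1g and Lat). For lung against LN in PBS mice (0 called), limma-voom called 1 (Cd247) and a fit of those groups alone 2 (Cd247 and Zap70). For the same comparison in DT mice (2 called, Ncr1 and Lat), median-ratio factors, a filter at a mean of 5 CPM, a fit of those groups alone and both alternatives chosen after seeing the data (macrophage markers as a covariate, and leaving out lung PBS replicate 2 and lung DT replicates 2 and 3) called 0. No filter on low counts called 1 (Ncr1). Leaving out each library in turn gave 0 to 1: Ncr1 without LN PBS replicate 1 or 2, LN DT replicate 4, lung PBS replicate 4 or lung DT replicate 1, Lat without LN DT replicate 1, and neither without the others. Adjusted p over these alternatives ran from 0.00209 to 0.33 for Ncr1 and from 0.00208 to 0.315 for Lat. For the mean DT difference (0 called), DESeq2 called 1 (Lat), limma-voom 6, the fit without both DT libraries numbered 1 called 2, and leaving out each library gave 0 to 2: Lat with Cd247 without LN DT replicate 4 or lung DT replicate 4, and with Fcer1g without lung DT replicate 1. The causes were not tested.

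With the replicate number as a block over all groups, 1 gene (Ncr1) was called between the tissues of DT mice; with same-numbered LN and lung libraries paired within treatment, Hcst was gained in DT mice (-0.75, adjusted p = 0.0331), and no other call of the 9 changed. Scaling by total counts moved the median of all genes from -0.01 to -0.18 for lung against LN in PBS mice and from -0.04 to -0.12 in DT mice, so values near 0 changed sign there: Tyrobp in PBS mice went from 0.11 to -0.06 and Lat from 0.05 to -0.11. Standard errors of the fold changes between 2 groups ran from 0.20 (Lat) to 0.46 (Zap70), which limits what 4 libraries a group could show.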
